A study of Homo sapiens with 18 samples.

Results

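SP1 binding at promoters was set beside gene expression in ZR751shMLL3 cells, over 2 SP1 ChIP-seq libraries and 2 RNA-seq libraries. A gene was a member if any base of the 10000 peaks with the highest signal in an SP1 library lay within 1 kb of its TSS, here the 5′ end of its gene record on hg19. SP1 replicate 1 gave 576 such genes and SP1 replicate 2 gave 4966, of 21082 genes with an FPKM value and 1 position. These are 2.73% and 23.6% of all genes, and 453 genes (2.15%) were members in both libraries. ZR751 is an established ER+ luminal breast cancer cell line, and the ZR751shMLL3 line carries a stably transduced lentiviral short hairpin RNA against MLL3 (gene symbol KMT2C), an H3K4 methyltransferase. It was sorted for GFP and grown without further treatment. The ZR751shLucif line carries a hairpin against luciferase in its place. Each line is 1 transduced population, and the submitters describe the ChIP-seq replicates as biological replicates of a single experiment.

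SP1 is a zinc finger transcription factor that binds the GC box, a GC-rich element common in promoters with CpG islands. It recruits parts of the general transcription machinery, often at promoters without a TATA box, and acts at many housekeeping genes. In ER+ breast cancer cells it is also known to tether ERα to promoters that lack a full estrogen response element.

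The hairpin's target and the cell identity were checked first. KMT2C stood at 1.07 and 2.69 FPKM in the ZR751shMLL3 RNA libraries and at 2.34 and 6.77 FPKM in the ZR751shLucif libraries. The groups overlapped, since the higher ZR751shMLL3 value exceeded the lower ZR751shLucif value. SP1 itself stood at 13.7 and 18.3 FPKM in ZR751shMLL3 and at 16.7 and 23.7 FPKM in ZR751shLucif. The 9 luminal markers checked were all expressed in ZR751shMLL3, from ESR1, the gene of ERα, at 12.1 and 10.8 FPKM to KRT8, a simple epithelial keratin, at 4113.6 and 3804.5 FPKM. Of 12 defining genes of other cell types, COL1A1, a fibroblast collagen, was at 17.0 and 17.7 FPKM and CD14, a monocyte receptor, at 1.41 and 1.34 FPKM. The other 10 were under 1 FPKM in both libraries, and COL1A2, the usual partner of COL1A1, was listed at 0 in both.

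The 2 SP1 libraries were unlike each other. Within 1 kb of a TSS lay 4.96% of the 10000 top peaks of replicate 1 and 52.4% of those of replicate 2. The ZR751shLucif SP1 libraries gave 3.90% and 4.35%. The ERα libraries of ZR751shMLL3 gave 1.48% and 0.880%, and its H3K4me1 libraries gave 2.38% and 2.85%. The ZR751shMLL3 SP1 mean was 28.7% ± 33.5 (SD, n = 2), against 4.13% ± 0.318 (SD, n = 2) for ZR751shLucif SP1. The exact permutation test gave a two-sided p of 0.3333, the smallest that 2 libraries against 2 allow. Against the 4 ERα and H3K4me1 libraries of ZR751shMLL3, at 1.90% ± 0.885 (SD, n = 4), the exact permutation p was 0.1333, again the smallest possible. Both differences rested on replicate 2: without it they were 0.835 and 3.06 percentage points, where with both libraries they were 24.6 and 26.8. The replicate 1 list holds 209985 peaks, all 280 bp wide among its top 10000, and its deposited name lacks the tags for read filtering and duplicate removal that the replicate 2 name carries. The replicate 2 list holds 300000 peaks with a median width of 500 bp in its top 10000. At an FDR of 0.01 or less stood 204178 peaks of the replicate 1 list and 12065 of the replicate 2 list. No listed peak of either ZR751shLucif SP1 library did, so the top peaks compared there were all above this FDR. In ERα replicate 1 of ZR751shMLL3 764 peaks did, and in its other ERα and H3K4me1 libraries 28599 or more. The part of these differences in the results was not tested, so each SP1 library is described apart.

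Rank within the lists showed where the libraries met. Of the first 100 peaks, 62.0% in replicate 1 and 80.0% in replicate 2 lay near a TSS, and 82.0% and 63.0% overlapped one of the 10000 top peaks of the other library. By ranks 1001 to 2500 the share near a TSS was 5.73% in replicate 1 and still 75.9% in replicate 2. In ranks 5001 to 10000 it was 3.24% and 34.2%. The density of promoter peaks thus fell early in the replicate 1 list and only after rank 2500 in the replicate 2 list.

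**Figure D1:**
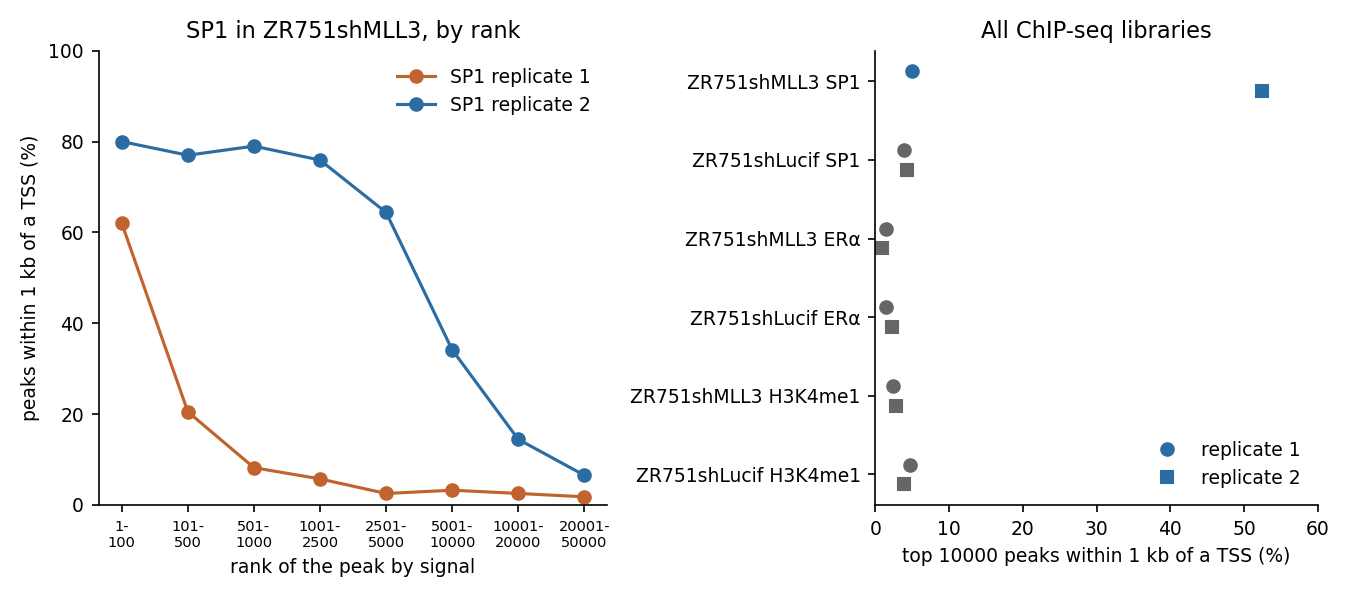
Left, share of SP1 peaks within 1 kb of a TSS (%) by rank of signal in the 2 ZR751shMLL3 SP1 libraries. Right, the same share over the 10000 top peaks of each of the 12 ChIP-seq libraries, at any FDR. Circles mark replicate 1 and squares replicate 2. SP1 replicate 2 of ZR751shMLL3 stands at 52.4%, and the other 11 libraries lie between 0.880% and 4.96%.

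The sequences under the summits are shown for 5 of the genes with the lowest sums of ranks over both libraries, because these are among the sites the libraries share most strongly. GINS4, with ranks 20 and 2 the gene with the lowest sum, and CDCA2, with ranks 15 and 16, are not shown. Each run is the 121 bases centred on the replicate 2 summit, on the plus strand of hg19. Capitals mark a GC box (GGGCGG or its complement CCGCCC) or a CCAAT box (CCAAT or ATTGG), the element bound by NF-Y.
ZNF687: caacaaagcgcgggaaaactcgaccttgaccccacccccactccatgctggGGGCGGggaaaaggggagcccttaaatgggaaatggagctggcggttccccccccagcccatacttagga
OS9: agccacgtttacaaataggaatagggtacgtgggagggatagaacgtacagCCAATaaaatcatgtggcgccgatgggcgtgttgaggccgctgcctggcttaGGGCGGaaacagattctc
SLC25A44: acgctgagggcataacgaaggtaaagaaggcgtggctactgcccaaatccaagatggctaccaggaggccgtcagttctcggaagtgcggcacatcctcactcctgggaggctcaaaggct
CIC: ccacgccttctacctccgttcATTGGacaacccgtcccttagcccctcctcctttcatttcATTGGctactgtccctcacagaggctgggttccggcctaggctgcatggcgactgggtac
FBRS: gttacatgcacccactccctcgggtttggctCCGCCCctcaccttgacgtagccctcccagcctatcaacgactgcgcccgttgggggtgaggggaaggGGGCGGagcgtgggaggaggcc

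These windows are chr1:151253797-151253917 for ZNF687, chr12:58087802-58087922 for OS9, chr1:156163686-156163806 for SLC25A44, chr19:42772968-42773088 for CIC and chr16:30669631-30669751 for FBRS. The FBRS window holds 2 GC boxes and the ZNF687 and OS9 windows 1 each. The CIC window holds 2 CCAAT boxes and no GC box, and the SLC25A44 window holds neither element.

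A peak at the promoter of SP1 itself is shown next, with that of RPL41, the member in both libraries with the highest FPKM. The windows are chr12:53773537-53773657 and chr12:56510238-56510358, with capitals as before.
SP1: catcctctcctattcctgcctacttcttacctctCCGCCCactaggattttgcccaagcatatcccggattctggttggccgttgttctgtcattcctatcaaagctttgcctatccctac
RPL41: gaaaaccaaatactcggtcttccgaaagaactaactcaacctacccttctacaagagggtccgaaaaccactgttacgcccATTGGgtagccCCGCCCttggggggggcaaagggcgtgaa

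The SP1 window holds 1 GC box and the RPL41 window 1 GC box and 1 CCAAT box.

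For contrast, 2 of the best-ranked replicate 1 peaks that lay away from a TSS and overlapped none of the 10000 top peaks of replicate 2 (ranks 42 and 46) are shown around their replicate 1 summits, at chr7:26486597-26486717 and chr6:119558584-119558704.
Rank 42: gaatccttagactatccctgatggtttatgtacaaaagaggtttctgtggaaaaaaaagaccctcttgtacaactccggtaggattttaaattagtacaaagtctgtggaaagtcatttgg
Rank 46: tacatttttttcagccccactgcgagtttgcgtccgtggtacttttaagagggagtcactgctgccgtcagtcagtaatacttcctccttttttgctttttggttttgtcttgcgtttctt

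Neither window holds a GC box or a CCAAT box, and G and C make up 37.2% and 43.8% of their bases.

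The same contrast ran through the lists. In windows of 100 bp on each side of the summit, a GC box on either strand was present at 62.5% of the replicate 2 peaks near a TSS and at 56.1% of the replicate 1 peaks near a TSS. Windows shifted by 1000 bp held one at 14.6% and 17.5%. Away from a TSS, 24.4% of the replicate 2 windows and 1.59% of the replicate 1 windows held a GC box, against 7.40% and 1.999% in the shifted windows. The median GC content of all replicate 1 windows was 33.3% and that of all replicate 2 windows 60.7%. Near a TSS both libraries therefore held the element SP1 is known to bind more often than the shifted windows. Away from a TSS the replicate 1 peaks held it no more often than the shifted windows. Peaks near a TSS in the ZR751shLucif SP1 libraries held it at 56.15% and 49.4%, so this share does not set replicate 1 apart from them. Whether it reflects SP1 or promoter sequence was not tested. The CCAAT box was at 47.2% of replicate 1 and 32.0% of replicate 2 summits near a TSS, against 23.4% and 22.2% in the shifted windows.

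Promoter sequence was then compared between genes with and without a peak, over the window from 250 bases before to 50 bases after the 5′ end. Of all 21082 promoters, 49.0% held a GC box on either strand. The share was 67.2% for the replicate 1 genes and 48.5% for genes without a replicate 1 peak. For replicate 2 it was 71.6% and 42.0%. The CCAAT box was at 52.6% of replicate 1 promoters, 43.7% of replicate 2 promoters and 35.5% of all promoters. The ETS element (CCGGAAG) was at 18.6%, 20.8% and 10.8%, and the TATA box (TATAAA) at 7.99%, 5.76% and 11.3%. Thus members of both lists carried GC, CCAAT and ETS elements more often, and the TATA element less often, than all promoters. The AP-1 element (TGAGTCA) was at 3.30%, 2.19% and 4.17%, and the CACCC element (CCCACCC), which KLF factors bind, at 18.6%, 20.0% and 20.3%. The median observed to expected CpG ratio was 0.760 for replicate 1 genes, 0.830 for replicate 2 genes and 0.658 for all genes. A match describes letters in a window and shows no bound site.

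The share of genes with a replicate 2 peak was higher both with a GC box and with expression. Of 6937 genes with a GC box and at least 1 FPKM in both RNA libraries, 45.7% had a replicate 2 peak. Without a GC box the share of such expressed genes was 31.7%. Of 3134 genes with a GC box and under 1 FPKM in both RNA libraries, 10.2% had a peak, and of 6648 such genes without a GC box 2.45% had one. In replicate 1 the 4 shares, in the same order, were 4.99%, 3.64%, 1.05% and 0.692%. The share with a replicate 2 peak did not rise steadily with the number of GC boxes. It was 13.1% with no box, 31.4% with 1, 39.8% with 2 and 34.2% with 3 or more.

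Peak summits gathered just upstream of the 5′ end. With positions negative upstream, the median summit lay at -35 bp in replicate 2, with quartiles at -162 and 138 bp, and 57.4% of summits were upstream. In replicate 1 the median lay at -78.5 bp, with quartiles at -214.25 and 149.75 bp, and 65.3% were upstream. Within 200 bp of the 5′ end lay 58.9% of replicate 2 and 50.0% of replicate 1 summits.

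**Figure D2:**
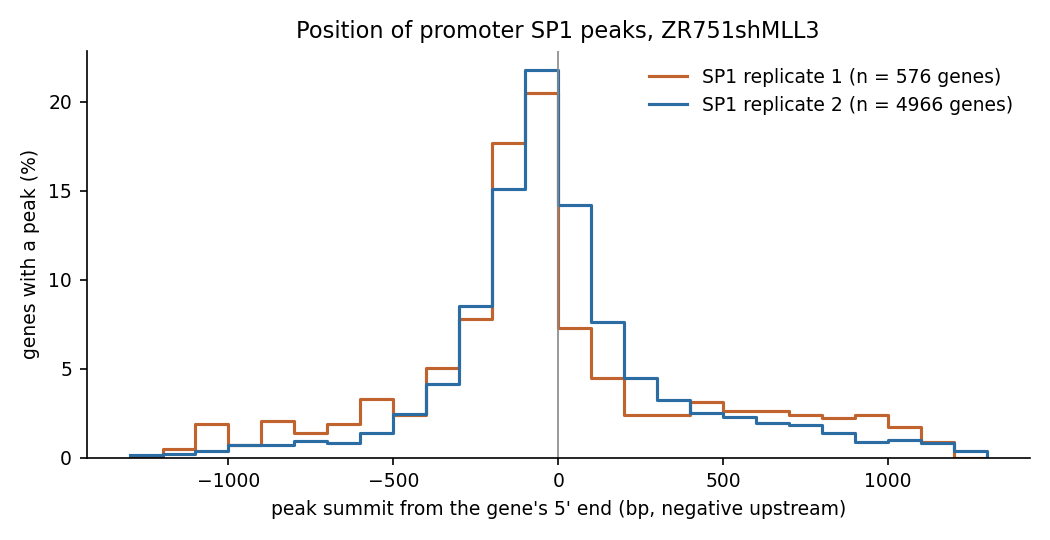
Distance of the peak summit from the gene's 5′ end (bp, negative upstream) for the 576 genes of SP1 replicate 1 and the 4966 genes of SP1 replicate 2, as the share of genes (%) per 100 bp. Both lines peak just upstream of the 5′ end, with medians at -78.5 and -35 bp.

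Genes with a promoter peak stood at higher FPKM than genes without one, for each SP1 library and in each RNA library. For SP1 replicate 1 the median was 12.999 FPKM with a peak and 1.23 FPKM without in RNA replicate 1, and 13.9 and 1.32 FPKM in RNA replicate 2. For SP1 replicate 2 the medians were 12.4 and 0.225 FPKM in RNA replicate 1, and 13.4 and 0.224 FPKM in RNA replicate 2. On the scale of log2(FPKM + 0.5), the median with a peak exceeded that without by 2.98 ± 0.012 (SD, n = 2 RNA libraries) for SP1 replicate 1 and by 4.21 ± 0.072 (SD, n = 2) for SP1 replicate 2. These SDs cover the RNA libraries and not the choice of SP1 library. Genes are not replicates, so no p-value was computed across them. A gene drawn at random from those with a peak stood above one without in 71.6% and 71.7% of pairs for SP1 replicate 1, and in 79.4% and 79.4% for SP1 replicate 2.

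**Figure D3:**
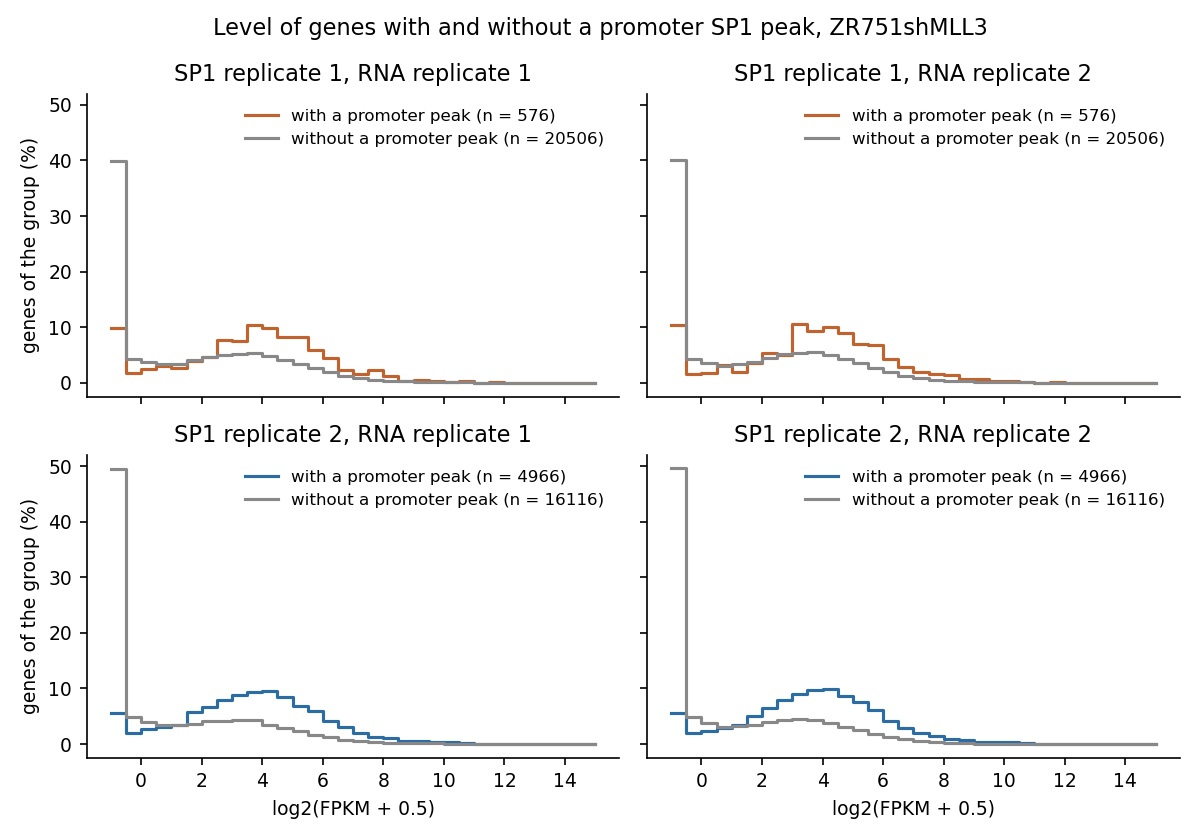
Share of genes (%) by log2(FPKM + 0.5) in bins of 0.5, with a promoter SP1 peak (coloured) and without (grey), for each SP1 library (rows) and each RNA library (columns) of ZR751shMLL3. The genes without a peak gather in the lowest bin, and the genes with a peak gather around medians of 12.4 to 13.9 FPKM.

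Much of the difference lay between genes with and without detectable RNA. At 1 FPKM or more stood 85.1% and 85.8% of the replicate 1 genes in the 2 RNA libraries, against 51.4% and 51.7% of genes without a replicate 1 peak. For SP1 replicate 2 the shares were 89.2% and 89.6% with a peak and 40.9% and 41.2% without. The difference was 33.9 ± 0.28 percentage points (SD, n = 2) for SP1 replicate 1 and 48.4 ± 0.11 (SD, n = 2) for SP1 replicate 2. Among the 10808 genes at 1 FPKM or more in both RNA libraries, the medians with and without a replicate 2 peak were 15.6 and 9.68 FPKM in RNA replicate 1, and 16.4 and 10.2 FPKM in RNA replicate 2. For SP1 replicate 1 they were 17.5 and 11.5 FPKM, and 18.3 and 12.2 FPKM. With a filter on a mean log2(FPKM + 0.5) above 1, the differences were 0.56 for SP1 replicate 1 and 0.62 for SP1 replicate 2.

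The share of genes with a peak followed the level across its range. Of the 4954 genes listed at 0 in both RNA libraries, 0.626% had a replicate 1 peak and 1.998% a replicate 2 peak. Among genes above 0, the lowest decile by mean FPKM had shares of 0.930% and 3.47%. Decile 5, from 2.51 to 5.06 FPKM, had 2.79% and 33.1%, and the highest decile, from 51.6 FPKM, had 6.39% and 52.8%. In replicate 2 every decile had a higher share than the one below it. In replicate 1 deciles 2 and 8 fell below their lower neighbours, at 0.744% and 5.08%.

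**Figure D4:**
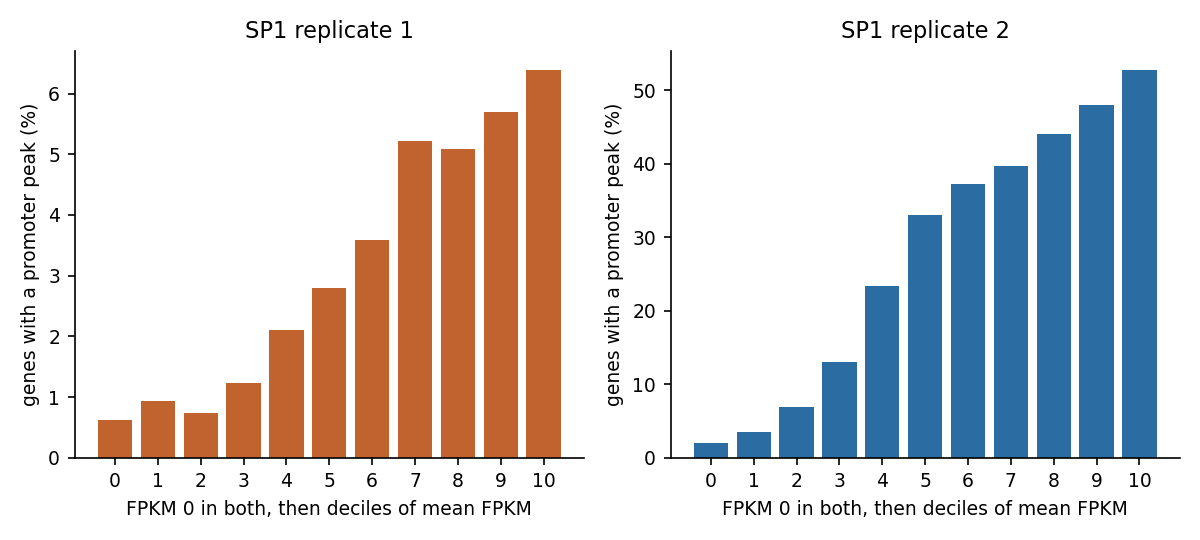
Share of genes (%) with a promoter peak among the 4954 genes listed at 0 FPKM in both RNA libraries (bar 0) and in deciles of the remaining genes by mean FPKM over both RNA libraries (bars 1 to 10), for each SP1 library, on separate scales. The shares run from 0.626% to 6.39% in replicate 1 and from 1.998% to 52.8% in replicate 2.

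The order of the peaks within the lists was only weakly correlated with the level. Across the 4966 replicate 2 genes, better rank and FPKM had Spearman coefficients of 0.13 and 0.13 in the 2 RNA libraries, and across the 576 replicate 1 genes of 0.19 and 0.19. These describe genes, which share libraries and overlapping peaks. Genes whose best replicate 2 peak ranked 1 to 100 had medians of 20.3 and 19.8 FPKM. Just inside the limit, at ranks 5001 to 10000, they had 9.77 and 10.8 FPKM, and just outside it, at ranks 10001 to 20000, 8.80 and 9.10 FPKM. In replicate 1 the values inside were 9.37 and 9.85 FPKM and those outside 8.07 and 8.13 FPKM. The limit of 10000 peaks therefore cuts through a gradual decline.

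The difference was present at every level of promoter GC content. Genes were split into quintiles of promoter GC content. In the lowest quintile, 5.90% had a replicate 2 peak, with medians of 10.5 and 12.97 FPKM against 0 and 0 FPKM without one. In the highest quintile, 25.5% had a replicate 2 peak, with medians of 12.8 and 13.8 FPKM against 3.38 and 3.61 FPKM. The log2 differences were 4.46 and 4.75 in the lowest quintile and 1.78 and 1.80 in the highest. Over the 5 quintiles the members' medians lay between 10.5 and 14.4 FPKM, while those of genes without a peak rose with GC content. For SP1 replicate 1 the lowest quintile stood apart, with medians of 0.979 and 1.03 FPKM over 60 members, while the other quintiles lay between 13.6 and 16.3 FPKM.

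The libraries' overlap sorted the genes further. Of the replicate 1 genes 78.6% were members in replicate 2, and of the replicate 2 genes 9.12% were members in replicate 1. The 453 genes in both had medians of 17.2 and 17.6 FPKM, and 92.3% and 93.2% of them stood at 1 FPKM or more. The 4513 genes in replicate 2 only had medians of 11.9 and 13.1 FPKM. The 123 genes in replicate 1 only had 2.55 and 2.79 FPKM, with 58.5% at 1 FPKM or more in each RNA library. A GC box was in 72.2% of promoters of the genes in both, in 71.5% of those in replicate 2 only, in 48.8% of those in replicate 1 only, and in 49.0% of all. In both GC box share and level, the genes in replicate 1 only lay nearer to all genes, whose medians were 1.39 and 1.52 FPKM.

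The association was also present with the RNA of ZR751shLucif. The medians of the replicate 2 genes there were 14.9 and 12.9 FPKM, against 0.238 and 0.213 FPKM without a peak. The other ChIP-seq libraries were ranked against the same RNA. A gene with an ERα peak stood above one without in 53.2% and 44.3% of pairs for the ZR751shMLL3 libraries. With an H3K4me1 peak it did so in 58.8% and 64.5%. For the ZR751shLucif libraries the values were 69.4% and 68.0% with an SP1 peak, 67.2% and 66.7% with an H3K4me1 peak, and 55.1% and 66.2% with an ERα peak. No test of these differences between antibodies was made, and their lists held 91 to 518 genes. Of the 447 and 518 ZR751shLucif SP1 genes, 81.7% and 77.4% were also members in ZR751shMLL3 replicate 2.

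Among the genes with the best-ranked replicate 1 peaks, FH, the fumarate hydratase of the citric acid cycle, had ranks 3 in replicate 1 and 78 in replicate 2, and stood at 69.3 and 77.8 FPKM. OS9, a lectin of endoplasmic reticulum quality control, had ranks 4 and 31 and stood at 189.0 and 207.0 FPKM. NCOA6, a coactivator of nuclear receptors and a subunit of the MLL3 and MLL4 complexes, had ranks 5 and 157 and stood at 10.97 and 11.8 FPKM. BPNT1, MTMR4, CIC and SLC25A44 were in both lists too, with replicate 2 ranks of 270, 110, 34 and 28. CIC, a transcriptional repressor, stood at 33.5 and 23.7 FPKM, and SLC25A44, a mitochondrial carrier, at 25.7 and 22.7 FPKM. All 10 of these genes were members in replicate 2, and 9 of them stood above 9 FPKM in both RNA libraries.

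The gene that stood apart was RAB39A, which was listed at 0 in both RNA libraries. Its peak, of rank 12 in replicate 1 and 325 in replicate 2, was shared with SLC35F2, a gene on the opposite strand whose 5′ end lies within the same 1 kb. SLC35F2 stood at 10.9 and 11.97 FPKM. At the canonical start of SLC35F2, which differs from its recorded 5′ end, no replicate 1 peak was listed and the replicate 2 rank was 110152.

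Of the 10 genes with the best-ranked replicate 2 peaks, 7 were members in replicate 1. Those were GINS4, a subunit of the replicative helicase complex, VAMP1, ZNF687, FBRS, ZNF143, CNNM2 and LSR. ZNF143, itself a transcription factor of promoters, had ranks 55 and 9 and stood at 5.05 and 3.86 FPKM. LSR, a tight junction and lipoprotein receptor of epithelia, had ranks 489 and 14 and stood at 117.3 and 92.4 FPKM. DUSP10 and the pair ANAPC5 and RNF34, which face away from each other over 1 peak, had replicate 2 ranks of 12 and 13 and no replicate 1 peak in the top 10000. ANAPC5, a subunit of the anaphase-promoting complex, stood at 66.4 and 61.3 FPKM, and RNF34 at 11.5 and 11.7 FPKM. The levels of the best-ranked genes thus ran over more than an order of magnitude, down to CNNM2 at 1.97 and 2.37 FPKM.

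The member in both libraries with the highest FPKM was RPL41, a protein of the large ribosomal subunit, with ranks 491 and 826 and 3044.5 and 3542.8 FPKM. RPS19, of the small subunit, had ranks 116 and 193 and 1596.2 and 1478.5 FPKM. SLC39A6, a zinc transporter long used as an estrogen-regulated luminal marker, had ranks 742 and 494 and 1569.3 and 1125.1 FPKM. It shared its peak with ELP2. ENO1, the glycolytic enolase, had ranks 2923 and 185 and 1148.0 and 770.2 FPKM. P4HB, TAGLN2, PPP1CA, NDUFS8, HSPA8 and C12orf57 completed the 10, between 351.5 and 996.3 FPKM in the 2 RNA libraries.

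High level did not require a listed peak at the 5′ end as recorded. Of the 10808 genes at 1 FPKM or more in both RNA libraries, 6340 had no peak in either top list, and 2258 had no listed peak of any rank in either library. Of the 10 genes with the highest FPKM and no listed peak, ACTB, the cytoskeletal actin, stood at 2487.3 and 2102.2 FPKM and CFL1, an actin-severing protein, at 1337.9 and 1159.2 FPKM. For 8 of the 10 a replicate 2 peak of any rank was listed within 1 kb of the start of the canonical transcript. That start lies downstream of the recorded 5′ end, and the rank there was 8019 for ACTB and 1093 for CFL1. The exceptions were SCGB2A2 (mammaglobin), a secretory protein of mammary epithelium, at 975.0 and 696.4 FPKM, and RPL24, a ribosomal protein, at 695.5 and 728.1 FPKM. No peak of either library was listed within 1 kb of either start for these 2 genes.

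The reverse case was rare. Of 7076 genes under 0.1 FPKM in both RNA libraries, 51 had a replicate 1 peak, 186 a replicate 2 peak and 12 both. Small RNA genes left aside, the 7 in both were GFI1B, RAB39A, DACT3-AS1, NPAS4, SYT11, NPHS1 and MAOA. GFI1B, a repressor of blood cell lineages, had ranks 37 and 92 and was listed at 0 in both RNA libraries. NPAS4, a factor induced by activity in neurons, had ranks 1214 and 63 and was also listed at 0. SYT11, DACT3-AS1 and RAB39A shared their replicate 2 peak with another gene. At the canonical starts of GFI1B, NPHS1 and MAOA, which differ from their recorded 5′ ends, neither library listed a peak. Of the 186 genes with a replicate 2 peak, 87 (46.8%) shared a peak with a gene at 1 FPKM or more in both RNA libraries, as did 26.6% of the 4397 expressed replicate 2 genes. In replicate 1 these shares were 11.8% of 51 and 28.7% of 487. Such low genes thus shared peaks with expressed neighbours more often than expressed members did in replicate 2, and less often in replicate 1, on 6 genes.

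Function was described with 28 gene lists, by the share of members with a peak beside the shares of all genes (2.73% in replicate 1 and 23.6% in replicate 2). Since most lists hold expressed genes, the share among the 10808 expressed genes, 40.7% in replicate 2, is the closer background. Core spliceosome proteins had the highest share in replicate 2, 25 of 34 genes (73.5%). SNRPD2, a subunit of the Sm ring, had ranks 3855 and 569 and stood at 194.4 and 229.0 FPKM. CDC5L had no listed peak and stood at 4.37 and 5.42 FPKM. Cytosolic ribosomal proteins had 46 of 71 (64.8%), among them RPS2 and RPS27 at ranks 2717 and 834 of replicate 2. RPS2 stood at 5549.5 and 4168.1 FPKM. Mitochondrial ribosomal proteins had 39 of 74 (52.7%), with MRPL51 at rank 525 and 303.6 and 269.7 FPKM.

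Lists of biosynthesis and cell division also had shares above 40.7%, though some by little. Among those given here, only the 95% interval of cholesterol synthesis enzymes, 43.4% to 87.4%, lay above 40.7%. For the other lists, from aminoacyl-tRNA synthetases (35.4% to 84.8%) to glycolysis enzymes (18.4% to 67.1%), the interval included it. Heat shock proteins and replication-dependent histones left aside, those shares therefore do not set these lists apart from expressed genes. The shares and intervals count all members, expressed or not. Among expressed members alone, heat shock proteins had 12 of 17 (70.6%) and replication-dependent histones 27 of 42 (64.3%). RNA polymerase II and general transcription factors had 17 of 37 (45.9%). No interval was computed for these shares. The intervals cover counting error only. Cholesterol synthesis enzymes had 13 of 19 (68.4%) in replicate 2 and 3 of 19 in replicate 1. FDPS, which makes farnesyl diphosphate, had replicate 2 rank 2907 and stood at 533.5 and 265.7 FPKM. Cytosolic aminoacyl-tRNA synthetases had 10 of 16 (62.5%), heat shock proteins 13 of 21 (61.9%) and DNA replication factors 22 of 42 (52.4%). POLD2, a subunit of DNA polymerase delta, had rank 38 in replicate 2 and stood at 209.9 and 160.3 FPKM. Replication-dependent histones had 27 of 55 (49.1%), oxidative phosphorylation subunits 35 of 72 (48.6%), mitotic regulators 13 of 29 (44.8%), RNA polymerase II and general transcription factors 17 of 38 (44.7%), proteasome subunits 14 of 32 (43.8%) and glycolysis enzymes 7 of 17 (41.2%). GAPDH, with 17641.4 and 12194.2 FPKM the highest glycolytic gene, had rank 200 in replicate 2 and no peak in the top list of replicate 1. ALDOA, at 7263.9 and 4287.6 FPKM, had rank 10200 at its recorded 5′ end, just outside the limit, and rank 294 at its canonical start.

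In replicate 1 the same lists had few members. RNA polymerase II and general transcription factors had 5 of 38 and mitochondrial ribosomal proteins 6 of 74, and mitotic regulators had none of 29. All 5 of the former and all 6 of the latter were members in replicate 2. At a share of 2.73%, lists of this size hold about 1 or 2 genes in replicate 1, so its counts say little of single lists.

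Immediate early genes, the first genes transcribed after a stimulus, had 13 of 19 (68.4%) in replicate 2. FOSB had ranks 258 and 286 while standing at 0.943 and 0.924 FPKM. IER3, at 330.1 and 238.9 FPKM, had replicate 2 rank 6771. JUND, at 88.0 and 78.2 FPKM, had no listed peak at its 5′ end in either library.

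Of the 26 SP and KLF factors, which share the zinc fingers that bind GC and CACCC elements, 7 had a replicate 2 peak (26.9%) and 2 a replicate 1 peak. The 2 were SP1, with ranks 30 and 330, and SP2, with ranks 26 and 128 and 14.7 and 12.1 FPKM. SP4, at 3.35 and 3.33 FPKM, had replicate 2 rank 428. KLF10, KLF6 and KLF13 had replicate 2 ranks of 2341, 3245 and 3480 and stood between 14.4 and 42.1 FPKM. SP7, the osteoblast factor, had replicate 2 rank 3722 but no listed peak at its canonical start, and stood at 0 and 0.014 FPKM. SP3, at 14.9 and 17.4 FPKM, had rank 10577, just outside the limit. KLF2, at 45.2 and 24.6 FPKM, and KLF4, at 18.0 and 11.6 FPKM, had no peak in either top list, although KLF4 had a replicate 2 peak of rank 6373 at its canonical start. Thus expressed members of the family stood on both sides.

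Of 21 promoters known from other work to be regulated by SP1, 9 (42.9%) were members in replicate 2 and 1, SP1 itself, in replicate 1. TK1, thymidine kinase of the S phase, had the best replicate 2 rank of this list, 91, and stood at 175.9 and 121.6 FPKM. TYMS, CCND1, VEGFA, FASN, CAD, ADA and HSPB1 had ranks between 2634 and 9419. CCND1, cyclin D1, stood at 270.2 and 279.3 FPKM and VEGFA, the angiogenic growth factor, at 24.97 and 23.1 FPKM. CTSD, E2F1 and CDKN1A were not in the top 10000 of either library, at replicate 2 ranks from 38579 to 153879 at the recorded 5′ end. At the canonical start CTSD, the protease cathepsin D, had rank 3508 and CDKN1A, a cell cycle inhibitor, had rank 8759. FASN went the other way, with replicate 2 rank 6017 at its recorded 5′ end and 150527 at its canonical start. With canonical starts, 10 of these promoters were members in replicate 2. CTSD stood at 4628.7 and 2251.5 FPKM.

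COMPASS subunits, which make up the family of H3K4 methyltransferase complexes to which the MLL3 complex belongs, had 10 of 17 (58.8%) in replicate 2 and 2 in replicate 1. NCOA6 was in both. KDM6A, the H3K27 demethylase of the MLL3 and MLL4 complexes, had rank 757 in replicate 1 and 270390 in replicate 2, and stood at 4.68 and 5.61 FPKM. SETD1A, ASH2L, RBBP5, WDR82, KMT2D, KMT2A, HCFC1, KMT2B and WDR5 had replicate 2 ranks from 175 to 5864. KMT2D, the closest relative of MLL3, had rank 1399 and stood at 6.74 and 9.99 FPKM. KMT2C, which encodes MLL3, had no listed peak within 1 kb of its 5′ end in either library.

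Luminal markers had a share near that of expressed genes, and estrogen-induced genes had a lower one on few genes. Of 17 luminal markers 6 (35.3%) had a replicate 2 peak and none a replicate 1 peak, and among the 16 expressed markers the replicate 2 share was 37.5%, near the 40.7% of all expressed genes. CDH1, the epithelial cadherin, had rank 246 and stood at 268.4 and 283.4 FPKM. FOXA1, the pioneer factor of ERα, had rank 1711 and stood at 76.8 and 93.7 FPKM. ELF3, KRT19, XBP1 and GRHL2 had ranks from 2625 to 3855. At its canonical start ELF3 had rank 181 in replicate 1 and 607 in replicate 2. The replicate 1 count of luminal markers rose to 2 with any transcript start or within 5000 bp. GATA3, at 259.2 and 206.3 FPKM, and ESR1 had no listed replicate 2 peak at their 5′ ends, and at their canonical starts the ranks were 4965 and 279679. Of 24 estrogen-induced genes 5 (20.8%) were members, with replicate 2 ranks of 2110 for FKBP4, 2410 for MYC, 3766 for XBP1, 4148 for CCND1 and 9864 for SIAH2. The number rose to 8 with any transcript start or within 5000 bp. TFF1, the classical target with an estrogen response element, stood at 1029.4 and 226.2 FPKM and had no listed peak, nor had GREB1 in replicate 2, at 56.3 and 35.3 FPKM. The 5 members had medians of 259.3 and 212.7 FPKM, and the other genes of the list had 49.9 and 35.3 FPKM. The lists differed in this respect. Cytosolic ribosomal proteins also stood higher with a replicate 2 peak, at 1100.4 and 1116.5 FPKM against 813.7 and 885.8 FPKM. Proteasome subunits stood lower, at 77.1 and 69.2 FPKM against 128.2 and 115.4 FPKM.

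Tissue-restricted families were nearly free of peaks, as were genes listed at 0 in both RNA libraries, at 0.626% in replicate 1 and 1.998% in replicate 2. Most members of these families were not expressed, so that share is their closer background. Of 358 olfactory receptors none was a member in either library, which allows a share of up to 0.838%. Keratin-associated proteins had 0 of 91, HOX genes 0 of 34 in replicate 1 and 1 of 34 in replicate 2, and defensins 1 of 36 in replicate 1 and 0 in replicate 2. Keratins had 1 of 53 in each library. In replicate 2 it was KRT19, at 3385.2 and 2862.3 FPKM, while the best listed replicate 2 peak of KRT8 ranked 118187 at its recorded 5′ end and 12225 at its canonical start. Of the 12 genes of other cell types, COL1A1 had replicate 2 rank 4709 and PTPRC, the leukocyte antigen CD45, had rank 5073 at 0.013 and 0.020 FPKM. Zinc finger genes on chromosome 19 were near the background of all genes, with 62 of 242 (25.6%) in replicate 2 and 12 (4.96%) in replicate 1. Their medians with a replicate 2 peak were 3.17 and 2.86 FPKM, against 0.862 and 0.922 FPKM without. Small nucleolar RNAs had 12 of 217 and microRNAs 51 of 1008 in replicate 2. RNA-seq of this kind hardly measures such short RNAs, so their FPKM were not compared.

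**Figure D5:**
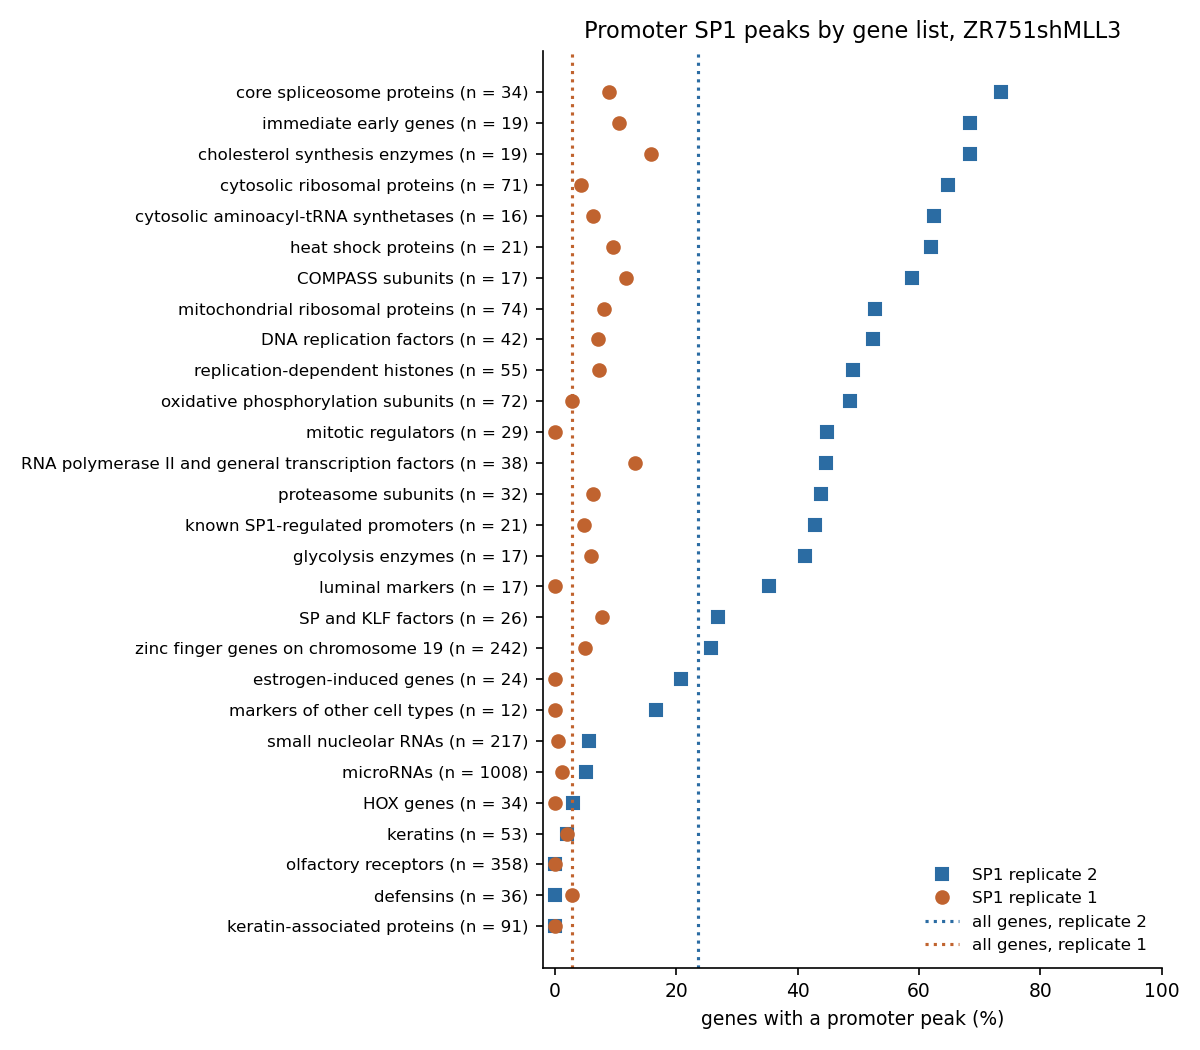
Share of genes (%) with a promoter peak in SP1 replicate 1 (circles) and replicate 2 (squares) of ZR751shMLL3 for the 28 gene lists, with the number of genes in brackets and dotted lines at the shares of all genes, 2.73% and 23.6%. In replicate 2 the lists run from 0 of 358 olfactory receptors to 25 of 34 core spliceosome proteins.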

How the data were processed

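RNA-seq and SP1 ChIP-seq of ZR751shMLL3 cells (2 libraries each) were analysed, with groups taken from the sample labels. The members and gene lists were chosen with earlier results of these data known. The deposited FPKM values were made by the authors per RefSeq transcript entry with TopHat2 2.0.13, Cufflinks 2.2.1 and Cuffnorm 2.2.1 on hg19, per the submitters' processing notes. The deposited peak lists give the signal by which the authors' caller SPP scored each peak against input, and the −log10 of its FDR. Reads had been aligned with BWA 0.7.5a-r405. The SP1 libraries came from another library series than the ZR751shMLL3 input. The deposited peak lists and FPKM values hold no read counts. The authors report an approximate depth for each assay and read counts in a supplement, which were not used here.

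Of 23500 named FPKM entries, 21082 matched 1 symbol (RefSeq names, GRCh38.p14) and 1 gene record of GENCODE on GRCh37, of which 17761 were protein-coding. 1 row without a name was left out. Peaks were ranked by signal within each list, ties by position. All 10000 top peaks of both ZR751shMLL3 SP1 libraries had an FDR of 0.01 or less. The top peaks of the other ChIP-seq libraries were taken at any FDR. Levels were compared as log2(FPKM + 0.5), and motifs were exact matches on both strands of GRCh37. A share of 0 was given the limit of 3 counts, which covers counting error only.

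The genes named were the 10 best-ranked per SP1 library, the 10 highest FPKM with a peak in both libraries or with none listed, the best-ranked genes under 0.1 FPKM, and list members. Apart from the SP, KLF, SP1-regulated, COMPASS, luminal and estrogen-induced lists, each list gave its 2 highest and 2 lowest FPKM. Exact permutation tests compared ChIP-seq libraries. Python 3.11.15, numpy 2.4.6, scipy 1.17.1, pandas 2.3.3, pysam and matplotlib were used, and the peak matching was tested on simulated data. Sequences were read from GRCh37, and those on chromosome 8 are not shown. An FPKM of 0 can be a failed estimate. Some genes and sequences that the rules chose are not reported here.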

Additional observations from a re-analysis of the deposited data

How the results depend on the processing

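The genes with a promoter peak stood above those without in level and in the share at 1 FPKM or more under every alternative run, for both SP1 libraries. The values below give SP1 replicate 1 first, then replicate 2, with log2 differences in level and differences in the share in percentage points. With 5000 top peaks the level differed by 3.11 and 3.99 and the share by 36.7 and 46.0, and 74.5% of replicate 2 promoters held a GC box. With 20000 top peaks the level differed by 2.84 and 4.29 and the share by 30.6 and 50.1. Within 500 bp, replicate 1 gave 3.09 in level and 36.4 in share, and 73.9% of replicate 2 promoters held a GC box. Within 5000 bp, replicate 1 gave 1080 genes, 2.44 in level and 21.4 in share, and a GC box in 55.6%, while replicate 2 gave 46.0 in share and a GC box in 67.4%, and 696 genes were in both. By the peak summit, replicate 1 gave 3.01 and 34.8. With any transcript start, replicate 1 gave 936 genes, and the level differed by 2.83 and 4.38, the share by 32.7 and 50.7, with a GC box in 61.9% and 66.8%. Among protein-coding genes alone the level differed by 2.12 and 3.51 and the share by 29.9 and 45.0. The start of the canonical transcript, chosen after seeing the data, gave 3.06 and 4.39 in level and 35.4 and 51.4 in share, and a GC box in 67.4% for replicate 2. A pseudocount of 0.1 gave 3.30 and 5.32, a pseudocount of 1 gave 2.67 and 3.50, and the filter on low values 0.56 and 0.62. The longer GC box GGGGCGGGG was in 24.8% and 27.6% of members' promoters and in 18.5% of all. Limiting the ZR751shMLL3 SP1 peaks to an FDR of 0.01 changed nothing, since all their top peaks had passed it. Leaving out RNA replicate 1 or 2 gave levels of 2.97 to 2.98 and 4.16 to 4.26, and shares of 33.7 to 34.1 and 48.3 to 48.5. For the share of top peaks near a TSS, leaving out 1 library gave differences of 0.835 to 48.3 percentage points against ZR751shLucif SP1 and of 3.06 to 50.5 against ERα and H3K4me1, lowest without SP1 replicate 2.

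No paired analysis was possible because the comparisons of genes come from no test across samples, and the SP1 and RNA libraries share a number only.

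The main limits are 2 SP1 libraries that differ widely, 2 RNA libraries, and that depth was not taken into account. A gene's recorded 5′ end lay over 1000 bp from its canonical start for 3269 genes. Peaks within 1 kb of a pair of starts were counted for both genes, and the share of members that shared a peak was 30.6% and 34.4%.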
